A study of Mus musculus with 26 samples.

Results

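The mRNA of 5 adipokines and 3 adipokine receptors was followed in brown adipose tissue (BAT) at thermoneutrality and after acute cold. The 8 genes were chosen by name: Lep (leptin), Lepr (its receptor), Adipoq (adiponectin), Adipor1 and Adipor2 (the adiponectin receptors), Retn (resistin), Cfd (adipsin, complement factor D) and Rarres2 (chemerin). All 8 are among the 50686 genes listed, and all 8 are among the 17286 genes that passed the filter on low counts. Leptin is secreted by adipocytes in proportion to their fat stores and acts on the brain through the long form of its receptor, which signals through the kinase JAK2 and the transcription factor STAT3. Adiponectin is an abundant, adipocyte-restricted protein that is assembled into multimers in the endoplasmic reticulum and acts through AdipoR1 and AdipoR2, which are membrane proteins of the PAQR family with ceramidase activity. Resistin is a small cysteine-rich protein made by adipocytes in mice. Adipsin is the serine protease that starts the alternative complement pathway, and chemerin is secreted as a precursor that proteases activate for the receptor CMKLR1.

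The study asked what loss of Afadin, a scaffold protein at cell contacts, does to BAT in the cold. All 26 mice were males of strain C57BL/6J, aged 12 to 16 weeks, housed individually and kept at thermoneutrality for 2 weeks (30 °C in the labels, 29 °C in the study's methods). The fat-specific Afadin knockout (FAKO) carried floxed Mllt4, the older symbol of the Afadin gene Afdn, with Adiponectin-Cre, a Cre driven by the promoter of Adipoq and thus of a gene examined here. The control littermates are given as WT. BAT, supraclavicular according to the labels, was collected at thermoneutrality from 7 controls and 7 FAKO mice, and after 6 h of 5 °C from 5 controls and 7 FAKO mice. The counts come from whole tissue, so fewer adipocytes and less RNA per adipocyte cannot be told apart, and mRNA says nothing of the hormone in the blood.

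Total counts ran from 12705969 to 25732258 per mouse. Levels are CPM, counts scaled to a common library size with TMM factors, and log2 fold changes come from edgeR's quasi-likelihood test. Adjusted p denotes its p after Benjamini-Hochberg correction over all 17286 genes, with a threshold of 0.05. Afdn stood at 196 ± 21.0 CPM (SD, n = 7) in control mice and 195 ± 27.4 (n = 7) in mice labelled FAKO at thermoneutrality, so genotypes are given as labelled. At 5 °C Afdn was 73.5 ± 4.27 (n = 5) and 58.5 ± 4.15 CPM (n = 7), without overlap (edgeR adjusted p = 0.116). Mice are called by the number in their labels. Control mouse 7 at thermoneutrality stood apart, with 14.3% of its counts on mitochondrial genes against 33.9 to 40.5% in the other 6, skeletal muscle markers that summed to 13387 against 22.3 to 3371 CPM, and fibroblast markers at 3635 against 1336 to 2026 CPM. Such muscle marker sums were not particular to mouse 7. At 5 °C they reached 13691 CPM in control mice and 17055 CPM in mice labelled FAKO. FAKO mouse 27 at 5 °C had neutrophil markers at 74.7 CPM against 6.51 to 30.1 in the other 6 and the lowest brown adipocyte markers of its group (17639 against 20636 to 28043 CPM).

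The promoters of Lep and Adipoq are shown because these were the genes of the 8 that passed the threshold in the cold in both genotypes. Each line holds the 250 bases before the RefSeq start (GRCm38.p6, plus strand), at chr6:29059971-29060220 for Lep and at chr16:23146286-23146535 for Adipoq. Capitals mark motif matches.

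Lep: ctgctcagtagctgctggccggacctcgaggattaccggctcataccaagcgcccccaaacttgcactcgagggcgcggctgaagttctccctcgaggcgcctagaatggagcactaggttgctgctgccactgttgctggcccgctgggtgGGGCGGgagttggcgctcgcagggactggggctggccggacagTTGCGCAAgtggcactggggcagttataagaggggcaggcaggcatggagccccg

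Adipoq: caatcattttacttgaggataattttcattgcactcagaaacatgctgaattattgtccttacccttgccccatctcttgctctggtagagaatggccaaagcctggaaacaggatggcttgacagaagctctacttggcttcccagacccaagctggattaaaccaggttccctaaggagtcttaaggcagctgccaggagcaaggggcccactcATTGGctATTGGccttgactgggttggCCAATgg

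In the Lep promoter the capitals are a C/EBP palindrome (TTGCGCAA), 55 to 48 bases before the start, and a GC box (GGGCGG) 98 to 93 bases before it. C/EBP factors are leucine-zipper regulators of adipocyte genes. The palindrome is rare, in 54 of 32851 promoter windows of this length (0.164%), while 32.7% hold the GC box. In the Adipoq promoter the capitals are 3 CCAAT boxes (CCAAT, printed ATTGG on the opposite strand), which start 34, 27 and 7 bases before the start and do not overlap. The CCAAT box stood in 33.8% of windows. Both strands were also searched for the TATA box (TATAAA, in 12.4% of windows), the cAMP response element (TGACGTCA, 1.55%), the E-box (CACGTG, 6.02%), the nuclear receptor element AGGTCA (14.0%) and the PPAR element, a repeat of it spaced by 1 base (0.0335%), and none of these letters was found in the Lep or Adipoq window. RefSeq promoters were matched for 7 of the 8 genes, all but Rarres2. The windows of Adipor2, Retn and Cfd held no match, and those of Adipor1 and Lepr held CCAAT and GC boxes. A match is a stretch of letters and not evidence of binding.

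Per kilobase of exon, the 8 genes covered almost the whole range of expression in BAT. In control mice at thermoneutrality the mean RPKM (reads per kilobase of exon, scaled to depth) was 1292 for Cfd, rank 18 of 17245 genes. Adipoq followed at 695 (rank 34), Adipor2 at 129, Lep at 75.7 (rank 348) and Adipor1 at 34.2. Retn stood at 28.1, Rarres2 at 20.4 and Lepr at 0.209 (rank 15919). The ligand transcripts adipsin and adiponectin were thus among the most abundant in the tissue, and Adipor2 had a higher level per length than Adipor1. After 6 h at 5 °C Cfd, Adipoq and Adipor2 still led in both genotypes, whereas Lep had moved to the 7th place of the 8, at 1.57 RPKM (rank 9749) in control mice and 3.96 RPKM (rank 6400) in mice labelled FAKO.

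**Figure D1:**
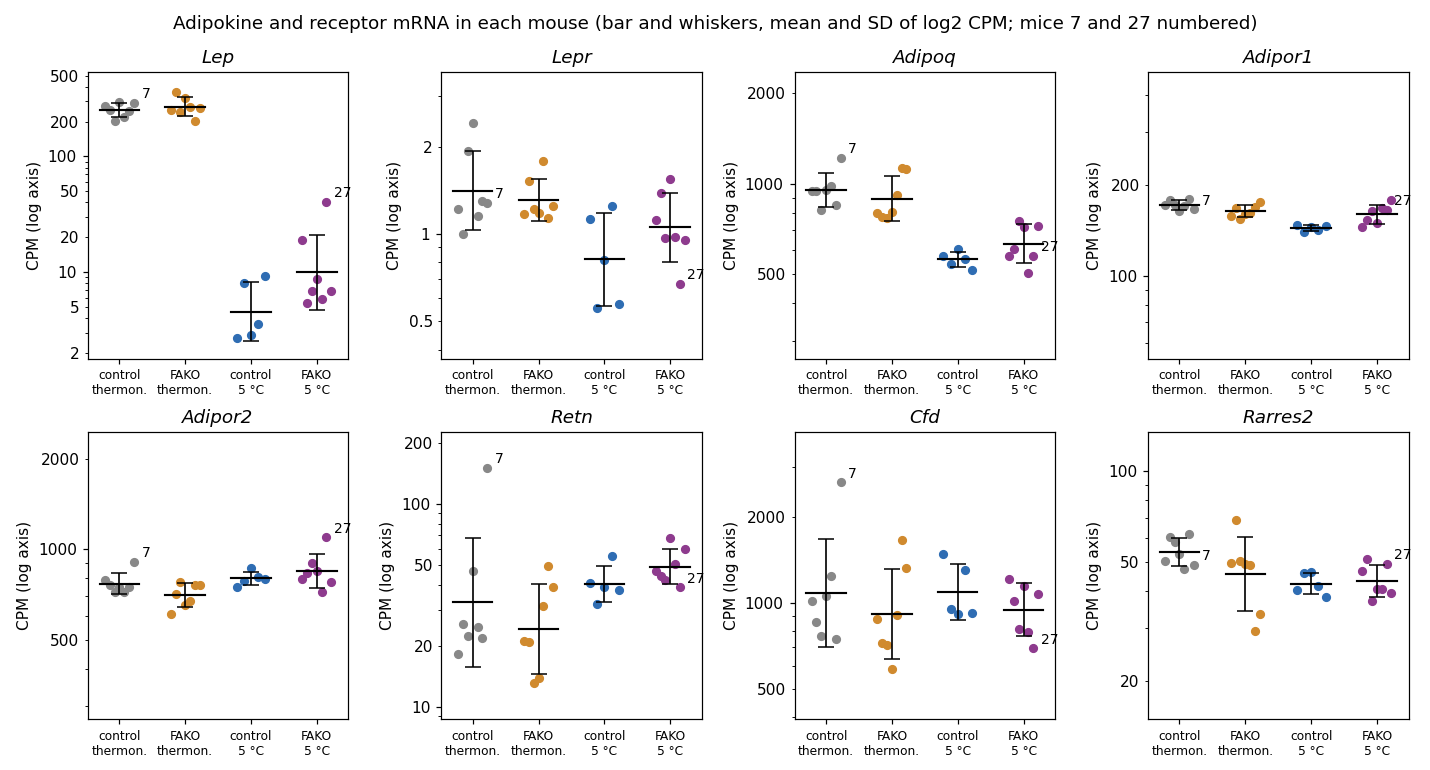
CPM of each gene in each mouse on a log axis, by group, with the mean and SD of log2 CPM as bar and whiskers and with mice 7 and 27 numbered. Lep lay between 203 and 359 CPM in the 14 mice at thermoneutrality and between 2.67 and 40.4 CPM in the 12 mice at 5 °C, Adipoq also separated the temperatures, and Retn and Cfd spread most at thermoneutrality.

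In control mice at 5 °C, 5 of the 8 genes were lower and 0 higher, where 65.0% of all genes tested were called, 31.6% as higher and 33.4% as lower. The median log2 fold change was -0.31 over the 8 genes and -0.01 over all genes tested. For 4 of the 8 (Lep, Adipoq, Adipor1 and Rarres2) the groups did not overlap, against 46.4% of all genes. Among mice labelled FAKO 2 genes were lower (Lep, Adipoq) and 2 higher (Retn, and Adipor2, which was at -0.05 with library size alone as the scaling), where 68.6% of genes were called, 33.7% as higher and 34.9% as lower. The groups of 2 of the 8 did not overlap there (Lep and Adipoq), against 40.4% of all genes. The median was -0.07 over the 8 genes and -0.03 over all. The number of the 8 that moved in control mice was therefore near the share of the whole transcriptome, and the fall of Lep was the largest among the 8.

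Leptin mRNA fell further in the cold than that of any other of the 8 genes. Lep (ENSMUSG00000059201.12, chr6:29060220-29073877 of mm10) ran from 203 to 295 CPM (median 253) in control mice at thermoneutrality. At 5 °C the control mice had 2.67, 8.01, 2.83, 3.53 and 9.22 CPM, from 45 to 160 counts. Every mouse at 5 °C was thus far below every mouse at thermoneutrality. Mean levels were 254 ± 34.7 CPM (SD, n = 7) and 5.25 ± 3.12 CPM (n = 5), a log2 fold change of -5.61 (SE 0.49, edgeR adjusted p = 1.13e-10) or 48.9-fold lower. In the FAKO groups, Lep ran from 203 to 359 CPM (median 265) at thermoneutrality and from 5.38 to 40.4 CPM (median 6.87) at 5 °C. The groups again did not overlap, and the log2 fold change was -4.36 (SE 0.39, edgeR adjusted p = 1.67e-10), 20.5-fold lower. The highest value at 5 °C was that of mouse 27. Without it the fall was -4.97 on the log2 scale. Of the 12 mature adipocyte markers, 5 were higher, 4 lower and 3 not called in control mice at 5 °C (median log2 fold change 0.07), and their sum went from 14711 to 17171 CPM to 25896 to 31223 CPM. The 12 brown adipocyte markers went from 2588 to 3847 CPM to 20538 to 22913 CPM, most of it Ucp1, the uncoupling protein of thermogenesis (mean 985 and 16005 CPM), and the 9 white adipocyte markers from 216 to 569 CPM to 685 to 1368 CPM, with Hoxc10 at 0 in every group. Of the 5 white markers tested, 1 was higher and 2 lower, with a median log2 fold change of -0.63, so the sums do not follow the typical marker. The part of adipocyte number in the fall of Lep was not tested.

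Lepr (ENSMUSG00000057722.17, chr4:101717404-101815352), the leptin receptor, was close to the detection limit. It ran from 0.999 to 2.42 CPM (median 1.28, 15 to 40 counts) in control mice at thermoneutrality. The 5 control mice at 5 °C had 1.13, 0.557, 0.815, 1.25 and 0.576 CPM, from 8 to 24 counts. All 5 were below the mean of the warm group and 3 were below its lowest mouse, so the groups overlapped. The log2 fold change was -0.76 (SE 0.24, edgeR adjusted p = 0.0079). In mice labelled FAKO the mean was 1.32 ± 0.24 CPM (n = 7) at thermoneutrality and 1.09 ± 0.294 CPM (n = 7) at 5 °C, which did not pass the test (log2 fold change -0.28, SE 0.22, edgeR adjusted p = 0.254). Scaled by library size alone this value was -0.62 and passed.

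Genes of leptin signalling moved in both directions. Of 18 listed, 17 were tested, and 8 were higher, 5 lower and 4 not called in control mice at 5 °C, with a median log2 fold change of 0.11 against -0.01 over all genes tested. Among mice labelled FAKO 9 were higher, 5 lower and 3 not called, with a median of 0.26 against -0.03, or 7 higher and 7 lower with a median of -0.05 against -0.34 with library size alone. Of all genes tested, 31.6% were higher and 33.4% lower in control mice, and 33.7% and 34.9% in mice labelled FAKO. The counts of this list and of the lists that follow are to be read beside these shares. On the log2 scale and in the order control mice, mice labelled FAKO, Socs3, which encodes the feedback inhibitor of JAK-STAT signalling, rose by 2.06 (SE 0.37) and 2.71 (SE 0.35), and the values below keep this order. Foxo1, a transcription factor held out of the nucleus by insulin signalling, rose by 1.79 (SE 0.16) and 1.67 (SE 0.15). Stat5a, a transcription factor downstream of cytokine receptors, fell (log2 fold change -2.04, SE 0.13, and -1.72, SE 0.12). Pik3r1, the regulatory subunit of PI3-kinase, went from 321 to 82.2 CPM in control mice (log2 fold change -1.96, SE 0.18, and -2.08, SE 0.16). The genes named here and from the lists that follow are those with the largest changes that passed the threshold in both genotypes. All 4 passed the threshold in both genotypes, with edgeR adjusted p of at most 1.98e-05.

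Adiponectin mRNA also fell in both genotypes, by less than leptin mRNA. Adipoq (ENSMUSG00000022878.5, chr16:23146536-23158028) ran from 820.2 to 1219.7 CPM (median 944) in control mice at thermoneutrality, mouse 7 being the highest. At 5 °C the control mice had 575, 542, 607, 564 and 518 CPM. The groups did not overlap, and the spread at 5 °C was small. Mean levels were 959.5 ± 129 CPM (n = 7) and 561 ± 33.7 CPM (n = 5), a log2 fold change of -0.77 (SE 0.12, edgeR adjusted p = 1.68e-06), 1.71-fold lower. In the FAKO groups, Adipoq ran from 767 to 1129.6 CPM (median 807) at thermoneutrality and from 506 to 754 CPM (median 607) at 5 °C. These groups did not overlap either, with a log2 fold change of -0.50 (SE 0.10, edgeR adjusted p = 0.000119), 1.42-fold lower.

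Because leptin and adiponectin are both made by adipocytes, their counts were also set against each other within each mouse. Whole-tissue counts do not show whether the same cells made both. Per kilobase of exon, Adipoq stood at 7.87 to 11.0 times Lep in control mice at thermoneutrality (median 9.05). In control mice at 5 °C it stood at 136, 163, 385, 517 and 518 times Lep. The log2 ratio of Lep to Adipoq was -3.20 ± 0.18 (SD, n = 7) at thermoneutrality and -8.21 ± 0.93 (n = 5) at 5 °C. This difference of -5.01 does not depend on library scaling (exact two-sided permutation test, p = 0.00126, the smallest that 7 against 5 mice allow, 0.00505 adjusted over 8 tests). In mice labelled FAKO the log2 ratio was -3.01 ± 0.45 (n = 7) and -7.26 ± 1.15 (n = 7), a difference of -4.25 (exact permutation p = 0.000583, the smallest that 7 against 7 mice allow, adjusted 0.00466). The ratio did not differ between the genotypes at thermoneutrality beyond the spread of the mice (difference 0.19, exact permutation, adjusted p = 0.427), nor at 5 °C (difference 0.95, exact permutation, adjusted p = 0.255).

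The adiponectin receptors moved by little and not together. Adipor1 (ENSMUSG00000026457.14, chr1:134415378-134433351), the receptor tied to AMPK signalling, ran from 164 to 181 CPM (median 172) in control mice at thermoneutrality. The 5 control mice at 5 °C had 147, 139.8, 146, 142 and 146 CPM. This was the most uniform of the 8 genes within groups, and all 5 cold mice were below all 7 warm mice. The log2 fold change was -0.25 (SE 0.05, edgeR adjusted p = 7.65e-05), 1.19-fold lower. Among mice labelled FAKO it was 164 ± 7.61 CPM (n = 7) at thermoneutrality and 161 ± 11.7 CPM (n = 7) at 5 °C, a log2 fold change of -0.03 (SE 0.05, edgeR adjusted p = 0.581), but of -0.35 with library size alone as the scaling and -0.19 with upper-quartile factors, both past the threshold.

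Adipor2 (ENSMUSG00000030168.13, chr6:119353150-119417704, minus strand), the receptor tied to PPARα signalling, ran from 719 to 909.9 CPM (median 748) in control mice at thermoneutrality. At 5 °C the control mice had 749, 787, 863, 811 and 793 CPM, within the warm range. The log2 fold change of 0.06 (SE 0.08) did not pass the test (edgeR adjusted p = 0.575) and was -0.08 with library size alone. In the FAKO groups it ran from 609 to 778 CPM (median 711) at thermoneutrality and from 723 to 1097 CPM (median 832) at 5 °C, where 6 of 7 mice were above the highest warm mouse. This rise of 0.27 (SE 0.08, edgeR adjusted p = 0.00264) depended on the scaling, being 0.11 with upper-quartile factors (adjusted p = 0.151) and -0.05 with library size alone. The counts of the 2 receptors within a mouse did not carry that dependence. The log2 ratio of Adipor1 to Adipor2 counts per kilobase of exon went from -1.91 ± 0.14 (n = 7) to -2.22 ± 0.08 (n = 5) in control mice, a difference of -0.31 (exact two-sided permutation p = 0.00631, adjusted 0.0163). In mice labelled FAKO it went from -1.85 ± 0.12 (n = 7) to -2.15 ± 0.22 (n = 7), a difference of -0.30 (exact two-sided permutation p = 0.00816, adjusted 0.0163). Adipor1 thus lost ground to Adipor2 in the cold in both genotypes, while the groups overlapped in each.

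**Figure D2:**
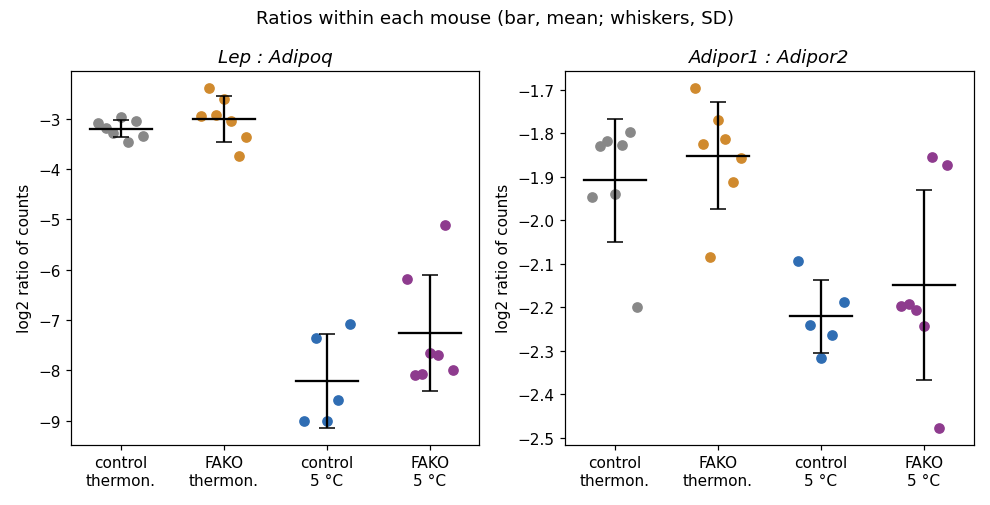
Log2 ratio of counts per kilobase of exon within each mouse for Lep to Adipoq (left) and Adipor1 to Adipor2 (right), by group, with mean and SD as bar and whiskers. The Lep to Adipoq ratio was between -3.75 and -2.39 at thermoneutrality and between -9.02 and -5.12 at 5 °C, and the Adipor1 to Adipor2 ratio of control mouse 7 (-2.20) lay among the cold values.

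Genes around adiponectin were more often lower than higher. Of 22 genes of its assembly and signalling, 21 were tested, and 5 were higher, 11 lower and 5 not called in control mice (median log2 fold change -0.36). Among mice labelled FAKO 5 were higher, 10 lower and 6 not called (median -0.16). Ero1l, the oxidase that helps form adiponectin multimers, rose by 0.75 (SE 0.13) and 0.84 (SE 0.12). Cdh13, T-cadherin, which binds multimeric adiponectin on cells, rose by 0.66 (SE 0.09) in control mice. In the FAKO groups it rose by 0.25 (SE 0.09), but this was 0.09 with upper-quartile factors and -0.08 with library size alone. Adcy9, an adenylyl cyclase, fell (log2 fold change -2.02, SE 0.12, and -1.76, SE 0.10), and Asah2, a ceramidase, fell (log2 fold change -1.30, SE 0.12, and -1.23, SE 0.11).

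The PAQR family, to which both receptors belong, has 9 other members on the list, all tested. In control mice 2 were higher, 6 lower and 1 not called (median -0.67), and in mice labelled FAKO 3 were higher, 5 lower and 1 not called (median -0.71), or 1 higher and 6 lower with library size alone. Paqr7, a membrane progestin receptor, fell (log2 fold change -3.07, SE 0.17, and -3.04, SE 0.15), from 7.95 to 0.937 CPM in control mice. Paqr6, another of this kind, fell (log2 fold change -1.80, SE 0.18, and -2.62, SE 0.17) at levels of 1.46 CPM and less in control mice. Mmd2 rose by 2.05 (SE 0.39) and 1.98 (SE 0.36), and Paqr9 rose by 0.80 (SE 0.18) and 0.57 (SE 0.16), the last of which was 0.26 and not called with library size alone. Of the 16 C1q and TNF related proteins, the family adiponectin belongs to, 10 were tested. In control mice 1 was higher, 5 were lower and 4 not called, and in mice labelled FAKO 2, 4 and 4, while with library size alone 0 and 1 were higher and 5 lower in each. C1qtnf2 fell (log2 fold change -2.37, SE 0.33, and -1.79, SE 0.29), C1qtnf12 fell (log2 fold change -0.86, SE 0.11, and -0.67, SE 0.10), and C1qb, a macrophage complement subunit, rose by 0.37 (SE 0.08) and 0.66 (SE 0.07). With library size alone, C1qb was 0.24 and not called in control mice. The 10 macrophage markers, of which C1qb is 1, summed to 233 to 328 CPM in control mice at thermoneutrality and 322 to 419 CPM at 5 °C.

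Resistin mRNA varied widely between control mice at thermoneutrality. Retn (ENSMUSG00000012705.16, chr8:3655770-3660110) ran from 18.2 to 151 CPM (median 24.8) in control mice at thermoneutrality. The 5 control mice at 5 °C had 40.6, 32.0, 39.1, 55.6 and 37.7 CPM, all within that range. The 151 CPM was that of mouse 7, and the mean of 44.3 ± 47.8 CPM (n = 7) was 26.6 ± 10.2 CPM (n = 6) without it. The cold log2 fold change in control mice was accordingly -0.12 (SE 0.41, edgeR adjusted p = 0.815) with all mice and 0.60 (SE 0.28, edgeR adjusted p = 0.0575) without mouse 7. In mice labelled FAKO, Retn ran from 13.0 to 49.5 CPM (median 21.1) at thermoneutrality and from 38.9 to 67.6 CPM (median 46.5) at 5 °C, with 3 of 7 cold mice above the highest warm mouse. The rise of 0.89 (SE 0.38, edgeR adjusted p = 0.0404) was close to the threshold, and the call was lost on leaving out any of 8 of the 14 mice (adjusted p up to 0.0835). It was also lost with upper-quartile factors (0.73, adjusted p = 0.0884) and with library size alone (0.54, adjusted p = 0.258). Of 7 related genes, which are the other resistin-like molecules and candidate receptors, 6 were tested, with 4 higher, 1 lower and 1 not called in control mice and 4 higher, 0 lower and 2 not called in mice labelled FAKO, where library size alone left 2 higher. Tlr4, the lipopolysaccharide receptor, rose by 0.38 (SE 0.11) and 0.54 (SE 0.10), and Ror1, a receptor tyrosine kinase, rose by 1.16 (SE 0.23) and 1.55 (SE 0.22). With library size alone Tlr4 was 0.27 and 0.22 and not called in either.

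Adipsin mRNA, the most abundant of the 8 per length, did not differ between temperatures beyond its spread. Cfd (ENSMUSG00000061780.6, chr10:79890853-79892655) ran from 748 to 2644.5 CPM (median 1014) in control mice at thermoneutrality. At 5 °C the control mice had 1484, 957, 916, 1302 and 926 CPM. Mouse 7 again gave the highest value, and the mean of 1191 ± 664 CPM (n = 7) was 949 ± 191 CPM (n = 6) without it. The cold log2 fold change was -0.09 (SE 0.27, edgeR adjusted p = 0.780) with mouse 7 and 0.21 (SE 0.21, edgeR adjusted p = 0.389) without it, neither past the threshold. Among mice labelled FAKO Cfd ran from 589 to 1665 CPM (median 877) and from 694 to 1216 CPM (median 1019.5), a log2 fold change of -0.0098 (SE 0.25, edgeR adjusted p = 0.974), which turned to 0.0047 under DESeq2. Of 18 genes of the alternative complement pathway, 15 were tested. In control mice 3 were higher, 4 lower and 8 not called, and in mice labelled FAKO 5, 3 and 7, or 2, 5 and 8 with library size alone. Cfi, the protease that inactivates C3b, went from 0.266 to 2.27 CPM in control mice (log2 fold change 3.08, SE 0.25) and rose by 2.10 (SE 0.23) in mice labelled FAKO. C5ar1, the receptor of C5a on myeloid cells, rose by 1.00 (SE 0.15) and 1.41 (SE 0.14). Cd46, a complement regulator, fell (log2 fold change -0.53, SE 0.16, and -0.61, SE 0.14), and Vtn, vitronectin, fell (log2 fold change -0.83, SE 0.15, and -0.96, SE 0.14).

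Chemerin mRNA was slightly lower in the cold in control mice. Rarres2 (ENSMUSG00000009281.6, chr6:48569696-48572789, minus strand) ran from 47.3 to 61.6 CPM (median 52.9) in control mice at thermoneutrality. The 5 control mice at 5 °C had 40.3, 45.8, 46.1, 41.5 and 38.2 CPM. The groups did not overlap, but the gap between them was small. The log2 fold change was -0.36 (SE 0.14, edgeR adjusted p = 0.0266), 1.28-fold lower, and the call was lost without control mouse 6 at thermoneutrality or without control mouse 16 or 21 at 5 °C (adjusted p up to 0.0675). In the FAKO groups it was 47.1 ± 12.8 CPM (n = 7) and 43.5 ± 5.45 CPM (n = 7), a log2 fold change of -0.11 (SE 0.13, edgeR adjusted p = 0.428), which was -0.42 and past the threshold with library size alone. Rarres2 shares 892 exonic bases with Lrrc61 on the opposite strand. Whether the counting used strand is not given in the sources used here, so reads of the shared stretch cannot be assigned with certainty, and Lrrc61 fell from 5.74 to 2.00 CPM in control mice (log2 fold change -1.51). Of 13 genes for chemerin receptors and processing, 11 were tested, with 1 higher, 3 lower and 7 not called in control mice and 2, 3 and 6 in mice labelled FAKO. Ctsl, the lysosomal protease cathepsin L, rose by 0.83 (SE 0.07) and 1.11 (SE 0.06), and Plau, urokinase, fell (log2 fold change -0.99, SE 0.17, and -1.03, SE 0.16).

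**Figure D3:**
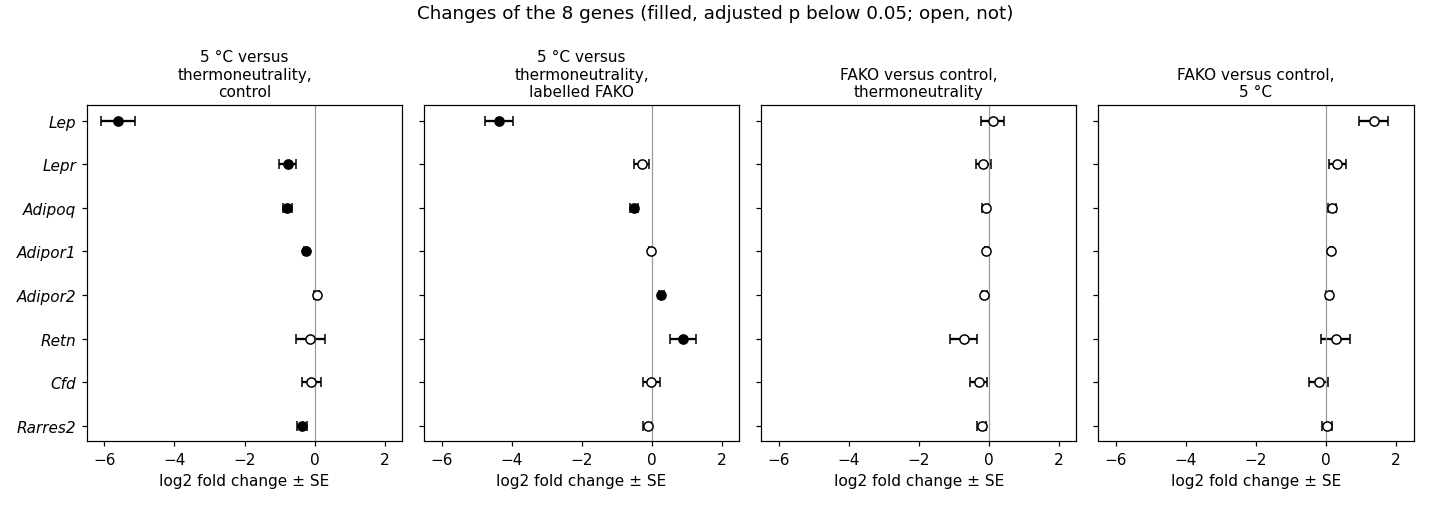
Log2 fold change ± SE of each gene, from left to right for cold in control mice, cold in mice labelled FAKO, and FAKO versus control at thermoneutrality and at 5 °C, with filled points past an adjusted p of 0.05. Lep at -5.61 and -4.36 lay far to the left of all others, Adipor2 in mice labelled FAKO was at 0.27 but at -0.05 with library size alone, and no point of the 2 comparisons of FAKO with control was filled.

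At thermoneutrality none of the 8 genes passed the test of FAKO against control (edgeR, 0 of 8, also 0 at an unadjusted p below 0.05 and 0 by DESeq2), where 0.0810% of all genes did, and 0 of the 8 were without overlap against 0.249% of all genes. The log2 fold changes were 0.11 (SE 0.33) for Lep, -0.09 (SE 0.10) for Adipoq, -0.07 (SE 0.05) for Adipor1, -0.12 (SE 0.08) for Adipor2 and -0.16 (SE 0.21) for Lepr. Scaled by library size alone, those of Adipoq, Adipor1, Adipor2 and Lepr turned to 0.05, 0.08, 0.0084 and 0.0084. For Retn it was -0.72 (SE 0.38, edgeR adjusted p = 0.679) and for Cfd -0.29 (SE 0.25), and without control mouse 7 these were 0.03 and 0.05. That mouse also weighed on Adipoq and Adipor2, which were at -0.0046 and -0.06 without it. Rarres2 was at -0.20 (SE 0.13). FAKO mice 13 and 14 had the highest Adipoq (1129.6 and 1124 CPM) and Cfd (1665 and 1323 CPM) of their group and the lowest Rarres2 (29.4 and 33.6 CPM), and also the lowest white adipocyte markers (161 and 192 CPM against 483.6 at most). These white marker values are sums, which did not follow the typical white marker in the cold, as given above. The part of the markers in the values of the 8 genes was not tested.

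Kng1, Rfc4 and Eif4a2, which lie near Adipoq, behaved otherwise than Adipoq. Other genes of the region are not given here. Kng1, which lies near Adipoq on chromosome 16 and encodes kininogen, had at most 1 count in any control mouse, whereas mice labelled FAKO had 148 to 229 counts at thermoneutrality and 123 to 389 in the cold. Rfc4, a clamp loader subunit, was higher in mice labelled FAKO by 0.57 (SE 0.08, edgeR adjusted p = 0.000982) at thermoneutrality and by 0.73 (SE 0.09, edgeR adjusted p = 0.000122) at 5 °C. Eif4a2, a translation factor, was higher by 0.40 (SE 0.07, edgeR adjusted p = 0.0158) and by 0.56 (SE 0.08, edgeR adjusted p = 0.000633). The mice labelled FAKO thus carried a signal at these named neighbours of Adipoq at both temperatures. Adipoq itself was at 904 ± 160.4 CPM (n = 7) against 959.5 ± 129 (n = 7) and at 637 ± 94.3 (n = 7) against 561 ± 33.7 CPM (n = 5).

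At 5 °C none of the 8 genes passed the test between mice labelled FAKO and control mice (edgeR, 0 of 8, where 0.139% of all genes did), while 2 had an unadjusted p below 0.05, and 0 of the 8 were without overlap against 1.11% of all genes. Lep was at 13.3 ± 12.8 CPM (n = 7) against 5.25 ± 3.12 CPM (n = 5), a log2 fold change of 1.36 (SE 0.42, edgeR adjusted p = 0.159). Of the 7 mice labelled FAKO, 2 were above the highest control mouse, mouse 22 at 19.1 and mouse 27 at 40.4 CPM. Without mouse 27 the mean was 8.77 ± 5.17 CPM (n = 6) and the log2 fold change 0.75 (SE 0.31, edgeR adjusted p = 0.309). Mouse 27 also had the highest sums of white adipocyte markers (1193 CPM against 420 to 1030) and of neutrophil markers (74.7 CPM) in its group, and mouse 26, with neutrophil markers at 30.1 CPM, had Lep at 5.85 CPM. The white marker sum did not follow the typical white marker in the cold, as given above. The part of white adipocytes and neutrophils in the Lep values was not tested. Adipor1 was at 161 ± 11.7 against 144 ± 3.18 CPM, with 6 of 7 mice labelled FAKO above the highest control mouse. Its log2 fold change was 0.16 (SE 0.05, edgeR adjusted p = 0.169), and DESeq2 called it as the only gene of the 8 (0.17, adjusted p = 0.0446). The sum of nuclear-retained RNAs differed between the same groups, at 14855 to 16284 CPM in control mice and 10352 to 13589 CPM in mice labelled FAKO. Of these 6 RNAs, 1 was called lower and 5 were not called by edgeR (median log2 fold change -0.26). Their part was not tested. The other 6 genes lay between -0.21 (Cfd) and 0.32 (Lepr), or between -0.14 and 0.41 without mouse 27.

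The cold responses of the 2 genotypes were then compared directly. None of the 8 differences passed the test (edgeR, 0 of 8, where 1.16% of all genes did), and 2 had an unadjusted p below 0.05. The fall of Lep was smaller in mice labelled FAKO by 1.26 (SE 0.53, edgeR adjusted p = 0.239), or by 0.65 without mouse 27. That of Adipor1 was smaller by 0.23 (SE 0.07, edgeR adjusted p = 0.0965), and DESeq2 called this difference (0.24, adjusted p = 0.0213). Retn differed by 1.01 (SE 0.56, edgeR adjusted p = 0.385), and by 0.26 without control mouse 7. The differences of Lepr (0.48), Adipoq (0.27), Adipor2 (0.22), Rarres2 (0.24) and Cfd (0.08) were within 2 standard errors, and that of Cfd was -0.25 without control mouse 7. A fall called in control mice and not in mice labelled FAKO, as for Lepr, Adipor1 and Rarres2, was therefore not shown to differ between the genotypes by this test.

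Transcription factors known to act on adipokine genes moved in both directions in the cold, near the shares of all genes. Of 16 listed, 15 were tested, with 5 higher, 6 lower and 4 not called in each genotype. Over all genes tested, 31.6% were higher and 33.4% lower in control mice, and 33.7% and 34.9% in mice labelled FAKO. Cebpa, the C/EBP of mature adipocytes, went from 365 to 72.7 CPM in control mice and from 328 to 90.3 CPM in mice labelled FAKO, log2 fold changes of -2.33 (SE 0.09) and -1.86 (SE 0.08). Cebpb rose from 22.5 to 72.6 CPM in control mice (1.69, SE 0.25, and 1.73, SE 0.23, in mice labelled FAKO), and Cebpd from 3.92 to 14.0 CPM (1.83, SE 0.17, and 2.33, SE 0.17). The C/EBP members therefore moved in opposite directions while Lep, whose promoter holds the C/EBP palindrome printed above, fell. The part of these factors in the fall of Lep was not tested. Srebf1, the regulator of fatty acid synthesis, went from 431 to 41.3 CPM in control mice (log2 fold change -3.38, SE 0.26, and -3.33, SE 0.23). The fall of Cebpa was smaller in mice labelled FAKO by 0.47 (SE 0.12, edgeR adjusted p = 0.0428), the only gene of the 9 lists whose cold response differed, but this call was lost without mouse 27 (0.43, adjusted p = 0.0609) and with library size alone (0.28). No gene of the 9 lists was called between the genotypes at either temperature by edgeR.

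Among 26 other adipokines and their receptors, 23 were tested. In control mice 9 were higher, 5 lower and 9 not called (median 0.19), and in mice labelled FAKO 13, 4 and 6 (median 0.53). Saa3, an acute-phase apolipoprotein, was at 0.184 CPM at thermoneutrality and 15.3 ± 12.3 CPM (n = 5) at 5 °C in control mice, a rise of 6.30 (SE 0.67), and rose by 5.27 (SE 0.61) in mice labelled FAKO. Lcn2, the iron-siderophore binder lipocalin 2, rose by 3.63 (SE 0.58) and 4.33 (SE 0.55). Both genes are also made by neutrophils or macrophages, and the neutrophil markers summed to 2.06 to 7.16 CPM at thermoneutrality and 6.82 to 14.4 CPM at 5 °C in control mice. Aplnr, the receptor of apelin, which endothelial cells express, fell (log2 fold change -4.13, SE 0.32, and -4.59, SE 0.28), from 50.7 to 2.92 CPM in control mice. Of 10 endothelial markers 4 were higher and 6 lower in control mice and 4 and 5 in mice labelled FAKO, with medians of -0.55 and -0.44, and their part was not tested. Angptl2 went from 238 to 40.6 CPM in control mice (log2 fold change -2.55, SE 0.12, and -2.20, SE 0.11). Falls of several log2 units were thus also seen outside the 8 genes.

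Markers of the other cells of the tissue moved in the cold as well, and their part in the values of the 8 genes was not tested. Neutrophil markers were higher (5 of 6 tested in control mice, 6 of 6 in mice labelled FAKO), and red blood cell markers were higher in mice labelled FAKO (6 of 6, median log2 fold change 1.20) with 0 of 6 called in control mice, while the difference of these responses passed for 0 of 6. Lymphocyte markers were lower in control mice (5 of 8, median log2 fold change -1.88). In mice labelled FAKO 2 of 8 were lower and 6 not called (median 0.02). The difference of these lymphocyte responses passed for 0 of 8. The median sum of the lymphocyte markers went from 33.7 to 20.1 CPM in control mice and from 38.6 to 24.2 CPM in mice labelled FAKO. Of the nerve and Schwann cell markers, 3 of 7 were lower in each genotype. Macrophage markers were 5 higher and 3 lower of 10 in control mice, and 7 and 2 in mice labelled FAKO. Smooth muscle and pericyte markers were 4 higher and 4 lower of 8 in each genotype, fibroblast markers 1 and 2 of 10 in control mice and 2 and 2 in mice labelled FAKO, and nuclear-retained RNAs 3 and 2 of 6, and 2 and 3. None of the 10 skeletal muscle markers, nor the 1 mesothelial marker tested, was called by edgeR in either genotype. The muscle marker sums varied widely between mice. At 5 °C they ran from 10.0 to 13691 CPM in control mice and from 11.1 to 17055 CPM in mice labelled FAKO.

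**Figure D4:**
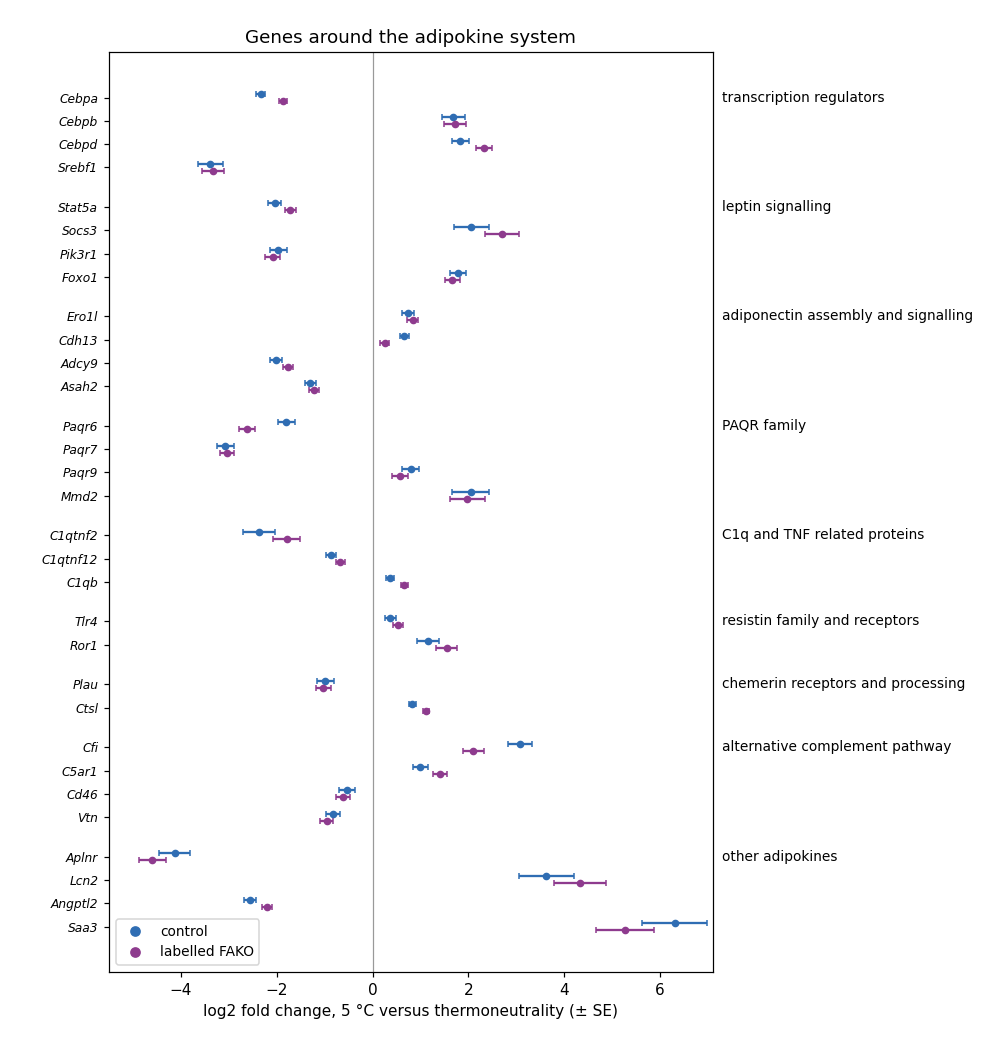
Log2 fold change ± SE at 5 °C versus thermoneutrality for the genes with the largest changes of each of the 9 lists, in control mice (blue) and mice labelled FAKO (purple). Aplnr (-4.13 and -4.59), Srebf1 and Paqr7 lay farthest to the left and Saa3 (6.30 and 5.27) and Lcn2 to the right, and Cdh13 in mice labelled FAKO, at 0.25, turned to -0.08 with library size alone. The genes were chosen for a call of the same sign in both genotypes.

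Among 14238 tested genes with a mean of at least 1 CPM, those whose pattern over the 26 mice was most like that of Lep were Klhdc7a, Gm39038 and Gdf5, with a root mean square difference of centred log2 CPM of 0.73, 0.77 and 0.82. Klhdc7a fell (log2 fold change -4.72, SE 0.12, and -4.47, SE 0.11). Gdf5, a growth factor of the BMP family, fell (log2 fold change -5.95, SE 0.35, and -6.02, SE 0.32). For Adipoq the difference was 0.099 for Pla2g16, the phospholipase of adipocytes also called AdPLA, and 0.13 for Dym and for Enpp5. The root mean square of centred log2 CPM was 2.67 for Lep itself and 0.365 for Adipoq. The sizes of their differences are therefore not directly comparable. Pla2g16 fell (log2 fold change -0.66, SE 0.09, and -0.54, SE 0.08). All these genes were picked for likeness to Lep or Adipoq over the same 26 mice. Their falls in the cold therefore follow from the choice and are not separate evidence.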

How the data were processed

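BAT RNA-seq of 26 mice was used, and groups were taken from the labels. A stranded kit with rRNA removal was used. The authors aligned reads to mm10 with STAR 2.5.2b, counted them per gene of GENCODE M13 with featureCounts 1.5.2, and deposited the counts without normalization. The study's own tests used edgeR 3.22.0.

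From these counts, genes were kept by filterByExpr (minimum count 10), scaled with TMM factors and fitted with 1 term per group in edgeR 4.0.16 (legacy quasi-likelihood mode, R 4.3.3), with Benjamini-Hochberg adjustment at 0.05. Each library is 1 mouse, so p-values measure the spread between mice. DESeq2 1.42.0, other scalings and filters and leaving out each mouse in turn were alternatives. Log2 CPM had a prior count of 2. For ratios, 0.5 was added to each count, which was then divided by the exon length of its gene. Symbols, coordinates and exon lengths came from GENCODE M21. The fits were tested on simulated data.

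The 8 genes, the 9 pathway lists and the marker lists were chosen with earlier results of these data known. Of each pathway list the text names the 2 genes with the largest rise and the 2 with the largest fall in control mice that were also called with the same sign in mice labelled FAKO and had a mean of at least 1 CPM, and any list gene called in another comparison. Marker lists of the tissue's cell types were described by counts and sums.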

Additional observations from a re-analysis of the deposited data

Results flagged for a closer look

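Within a group, a mouse was looked at again when its gap to the nearest mouse, as a share of the group's range, was above Dixon's critical value for that number of mice. Over 40 groups of values (the 8 genes and 2 ratios in 4 groups), 3 mouse values did so, and chance alone does so in about 1 in 20 groups. All 3 belong to control mouse 7 at thermoneutrality. Its log2 CPM of Adipor2 was 9.83, where the nearest mouse had 9.62. Its log2 CPM of Cfd was 11.37, where the nearest had 10.28. Its log2 ratio of Adipor1 to Adipor2 counts per kilobase of exon was -2.20, where the nearest had -1.95. In the same mouse mitochondrial counts were low and muscle and fibroblast markers high, as given above, and the complement genes summed to 1181 CPM against 552 to 763 in the other 6. Their part in these values was not tested.

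The cold responses of the genotypes differed by the test of the difference itself for Cebpa among the genes of the 9 lists, by 0.47 on the log2 scale.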

How the results depend on the processing

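The cold calls of Lep and Adipoq held under every setting tried. Of 346 values of the 8 genes under other settings, 324 kept their direction and their side of the threshold, 6 lost and 6 gained a call, and 10 turned in sign. Of 624 with 1 mouse left out, 600, 11, 0 and 13 did so. With library size alone the sign turned for FAKO versus control at thermoneutrality in Adipoq (0.049), Adipor1 (0.081), Adipor2 (0.0084) and Lepr (0.0084), for cold in Adipor2 in control mice (-0.080, and -0.051 with upper-quartile factors) and mice labelled FAKO (-0.047), and for the difference of cold responses in Cfd (-0.054). This scaling moved the median of all genes to -0.14 for cold in control mice, -0.34 in mice labelled FAKO, 0.13 for FAKO versus control at thermoneutrality and -0.15 for the difference, and upper-quartile factors moved the cold medians to -0.12 and -0.18. The genes called higher and lower went from 5825 and 6035 for cold in mice labelled FAKO to 3223 and 8384 (library size alone) or 4694 and 7369 (upper-quartile), and from 5454 and 5779 in control mice to 4165 and 6243 or 4751 and 6579. FAKO versus control went from 10 and 4 to 34 and 0 or 13 and 1 at thermoneutrality, and from 8 and 16 to 4 and 1 or 7 and 24 at 5 °C, and the difference from 50 and 150 to 0 and 278 or 27 and 246. Cfd in the cold in mice labelled FAKO was 0.0046 with DESeq2 size factors and 0.0047 with DESeq2's test, and Cdh13 there was -0.076 with library size alone.

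DESeq2 called 48 genes for FAKO versus control at thermoneutrality, 197 at 5 °C and 488 for the difference, in place of 14, 24 and 200, and 1 of the 8 genes, Adipor1, in each of the last 2. Library size alone gave 34 and 5 for the 2 comparisons of FAKO with control. Without a filter there were 9, 15 and 27, with at least 10 counts in every mouse 45 at 5 °C, and with the compared groups alone 9 at 5 °C. With 1 mouse left out these counts ran from 7 to 93 at thermoneutrality (93 without control mouse 7), from 7 to 100 at 5 °C and from 49 to 371 for the difference (371 without control mouse 7). Fold changes that turned with 1 mouse left out ran from -0.22 to 0.21 (Cfd, cold, control), -0.10 to 0.14 (Cfd, cold, FAKO), -0.25 to 0.26 (Cfd, difference), -0.46 to 0.048 (Cfd, FAKO versus control, thermoneutrality), -0.24 to 0.0038 (Lepr, the same), -0.93 to 0.031 (Retn, the same), -0.25 to 0.60 (Retn, cold, control) and -0.0092 to 0.072 (Rarres2, FAKO versus control, 5 °C). Library size alone left the adiponectin list with 12 lower and 3 higher in control mice and 13 and 2 in mice labelled FAKO, and in the latter the other adipokines with 10 higher and 7 lower and the regulators with 5 and 9. These scalings of the list counts and named genes were chosen after seeing the data. Lepr, with 8 to 40 counts per mouse, is limited by depth. The causes were not tested. No paired analysis was possible because the groups share no replicate numbers.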
